A study of Mus musculus with 6 samples.

Results

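The Nlrp genes of the mouse oocyte other than Nlrp5 were examined in fully-grown GV oocytes, in which meiosis is paused with an intact nucleus (the germinal vesicle). The genes are Nlrp2, Nlrp4a, Nlrp4b, Nlrp4e, Nlrp4f, Nlrp9a, Nlrp9b, Nlrp9c and Nlrp14, chosen by symbol. All 9 were found among the 23235 gene rows of the expression table, and all 9 had the mean of at least 1 FPKM that was required for testing, as did 12029 genes in all. The wild-type (WT) group held 3 libraries and the Rtcb KO group held 3, each made from 10 oocytes of C57BL/6 mice collected 44 to 48 h after PMSG, a gonadotropin that stimulates follicle growth. All 6 titles also carry the tag 6W, which the labels do not spell out. Rtcb encodes an RNA ligase that acts in tRNA splicing and in the unconventional splicing of Xbp1. For the KO allele, the deleted exons and any Cre driver were not given in the sources used here. No label ties a library to an animal of its own, and the p-values therefore reflect only how these libraries vary, which may be technical.

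NLRP proteins carry an N-terminal pyrin domain in most members, a central NACHT domain that binds and hydrolyses ATP, and C-terminal leucine-rich repeats. Some of them, such as NLRP3, assemble inflammasomes in immune cells, whereas a reproductive branch is transcribed mainly in germ cells and contributes proteins stored in the egg for the early embryo. NLRP5 of this branch is a component of the subcortical maternal complex, a protein assembly at the egg cortex linked to the fibrous cytoplasmic lattices. In the mouse the branch has been enlarged by gene duplication, mostly on chromosome 7.

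The values are FPKM, read fragments normalized to transcript length and library size, which the authors scaled to ERCC spike-in RNA. FPKM is per length, so levels can be compared between genes. Means are given ± SD (n = 3), and changes are differences of log2(FPKM + 1), Rtcb KO minus WT. A call is a Benjamini-Hochberg adjusted p under 0.05 in limma, a linear model with variance shared across all genes tested. The deposited values carry 1 common factor per genotype, 0.667 times as large in KO as in WT (−0.58 on the log2 scale). Most fold changes on the deposited scale are therefore given beside their values with that factor removed. Exceptions are the genes of most similar pattern and some results with another filter or with a gene or library left out. The targeted gene, listed under its older symbol D10Wsu52e, stood at 113 to 136 FPKM in WT and at 2.49 to 3.82 FPKM in KO libraries. All 10 oocyte markers were detected. Markers of granulosa and cumulus cells summed to 59.1 to 65.4 FPKM in WT and 46.6 to 61.5 FPKM in KO, against 22872 to 26466 and 15400 to 16650 FPKM for the oocyte markers. Of those 12 markers, 6 were tested, with 1 lower and 1 higher as deposited (of all tested genes, 54.0% and 9.29%). With the factor removed 0 were lower and 2 higher (all genes: 18.0% and 25.7%). As deposited, Cyp19a1 had means of 37.5 FPKM in WT and 19.8 FPKM in KO (called lower). Nr5a2 had means of 9.45 and 13.4 FPKM (called higher) and Inha of 6.38 and 10.7 FPKM (not called). Amh, Foxl2 and Fshr had means under 1 FPKM. Markers of theca and stroma summed to at most 2.08 FPKM and those of leukocytes to at most 9.15 FPKM in any library, and Hba-a1 and Hbb-b1 of erythrocytes were at 0. The part of other cells in the results below was not tested. In such bulk libraries fewer transcripts per oocyte and fewer oocytes contributing RNA cannot be told apart.

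The members are named for their kinship, which can be seen in the coding bases of the Walker A loop, the phosphate-binding stretch of the NACHT domain. One match to this motif was found in the coding sequence of each of the 9 genes (longest coding transcript, GENCODE vM21, build mm10). In the lines that follow, capitals mark the 8 codons of the loop within 36 bases of coding sequence.
Nlrp14: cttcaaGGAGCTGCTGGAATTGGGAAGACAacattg
Nlrp2: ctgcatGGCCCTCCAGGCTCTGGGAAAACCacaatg
Nlrp4a: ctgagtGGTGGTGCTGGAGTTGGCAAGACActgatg
Nlrp4b: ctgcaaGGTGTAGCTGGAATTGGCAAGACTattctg
Nlrp4e: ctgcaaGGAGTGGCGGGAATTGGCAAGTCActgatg
Nlrp4f: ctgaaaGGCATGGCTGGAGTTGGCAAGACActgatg
Nlrp9a: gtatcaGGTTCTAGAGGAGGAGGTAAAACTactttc
Nlrp9b: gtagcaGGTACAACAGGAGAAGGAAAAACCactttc
Nlrp9c: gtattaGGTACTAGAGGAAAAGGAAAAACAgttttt
Against Nlrp14, the 36 bases differed at 17 positions in each of the Nlrp9 genes and at 9 to 12 positions in Nlrp2 and the Nlrp4 genes.

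Over whole coding sequences, Nlrp9a and Nlrp9c were identical at 87.4% of aligned bases, Nlrp9a and Nlrp9b at 83.5%, and Nlrp9b and Nlrp9c at 82.3%. Among the Nlrp4 genes, Nlrp4a and Nlrp4e were identical at 85.9% and Nlrp4a and Nlrp4b at 78.0%. Nlrp4e was closest to Nlrp4c, a gene outside the 9, at 93.9%. In transcripts, 36.9% of the 50-base windows of Nlrp4e occurred exactly in transcripts of other genes, against 0% for Nlrp14 and Nlrp4b, 0.835% for Nlrp2 and 3.11% to 7.08% for the rest. The treatment of reads that match several genes was not given in the sources used here, which makes the level of Nlrp4e the least certain of the 9. In the RefSeq gene order of GRCm38.p6, Nlrp9c, Nlrp4a and Nlrp9a are neighbours on chromosome 7 with 0 coding genes between them. Nlrp4e is the neighbour of Nlrp5, and Nlrp4f alone lies on chromosome 13.

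**Figure D1:**
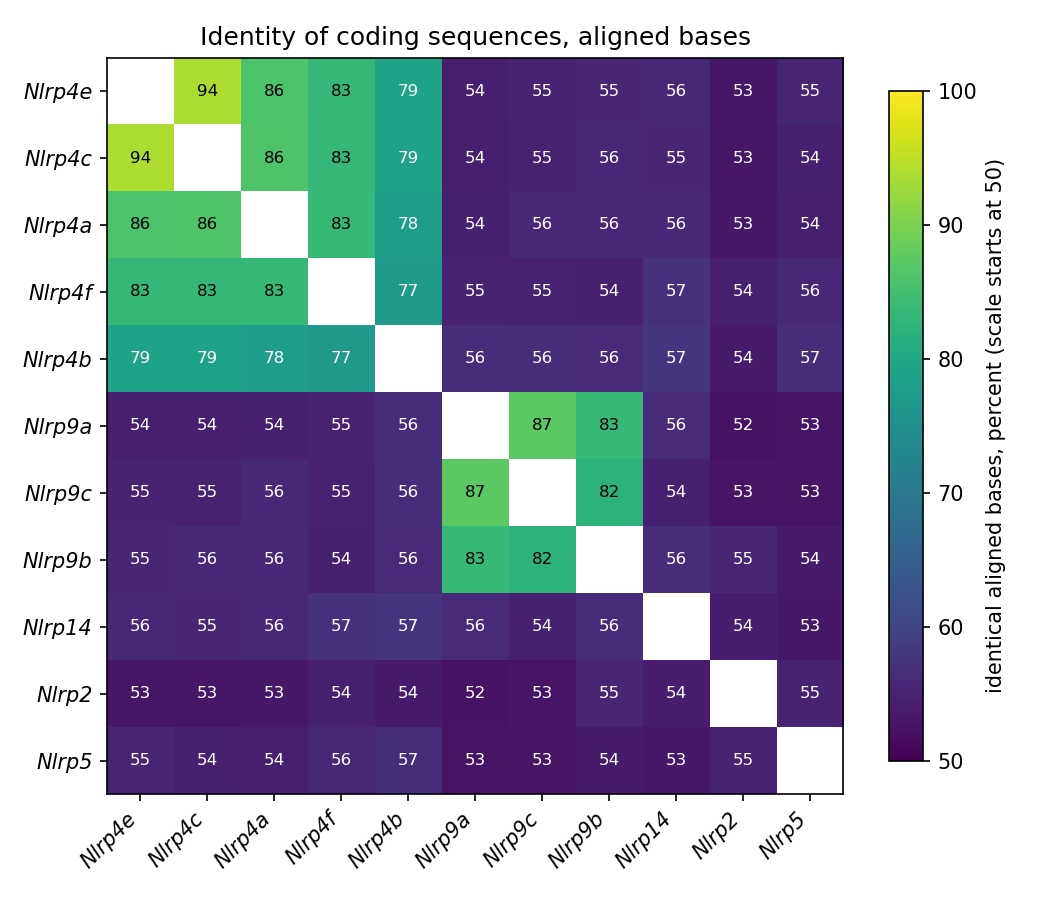
Identity of coding sequences between the 9 Nlrp genes, Nlrp4c and Nlrp5, in percent of aligned bases (colour and number, colour scale from 50 to 100). The Nlrp4 and the Nlrp9 genes form separate blocks, with Nlrp4e and Nlrp4c at 93.9% as the closest pair.

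All 9 transcripts fell in Rtcb KO oocytes on the deposited scale. By the means they were 1.90-fold (Nlrp9c) to 4.19-fold (Nlrp2) lower, or 1.26-fold to 2.79-fold for these genes with the factor removed. As deposited, every KO library lay below every WT library in each of the 9 genes. The background is large: 54.0% of all tested genes were called lower and 9.29% higher on this scale, and 57.5% had all KO values below all WT values. The size of the fall is set beside the other genes in its own right: the median log2 fold change was −1.38 over the 9 genes and −0.47 over all tested genes. Of all tested genes, 0.507% had a lower log2 fold change than Nlrp2, 0.574% than Nlrp14 and 20.0% than Nlrp9c.

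With the genotype factor removed, 8 of the 9 were called lower and 0 higher, against 18.0% and 25.7% of all tested genes. The same 8 had all KO values below all WT values, as had 24.7% of tested genes. The median was then −0.79 over the 9 genes and 0.043 over all. After scaling every library to an equal total, 9 were called lower (all genes: 25.8% lower, 19.0% higher), with medians of −0.95 and −0.094. After median-ratio rescaling 9 were called lower (all genes: 21.7%), with medians of −0.86 and −0.020. When only genes averaging at least 100 FPKM entered the fit, 8 of the 9 were tested and 8 called lower, against a background of 66.5%. Their median of −1.46 stood beside −0.48 for all genes of that level.

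**Figure D2:**
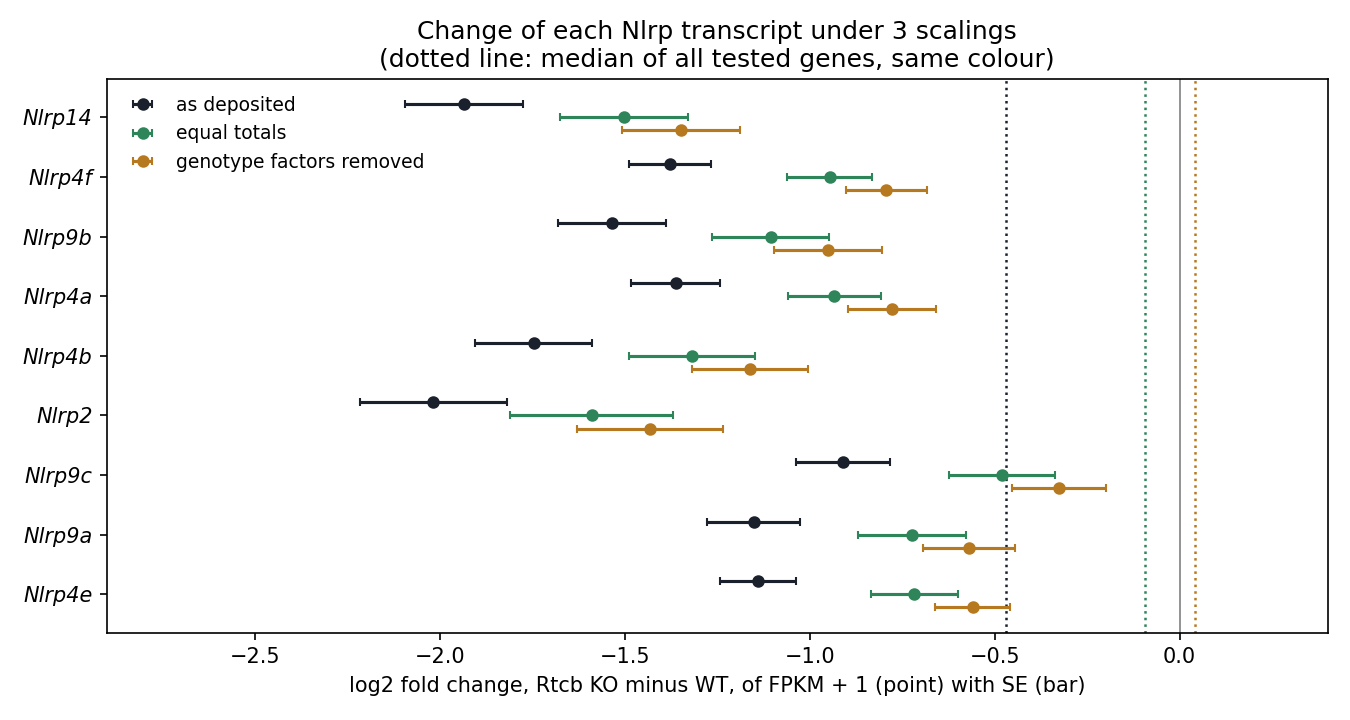
Log2 fold change of FPKM + 1, Rtcb KO minus WT (points, bars are SE), for each Nlrp gene on the deposited scale, after scaling to equal totals and with the genotype factors removed. Dotted lines mark the median of all tested genes on each scale, and all 9 points of a scale lie left of their line.

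The members with a known maternal role are described first. Nlrp14, whose protein is needed in the mouse egg for the embryo's first cleavages, had the highest level. WT replicates 1 to 3 held 2853, 2200 and 1902 FPKM, and KO replicates 1 to 3 held 668, 607 and 525 FPKM. The lowest WT value was far above the highest KO value. The mean of 2318 ± 486 FPKM in WT fell to 600.1 ± 71.8 FPKM in KO, a log2 fold change of −1.93 (SE 0.159, limma adjusted p = 0.000162). Without the genotype factor it was −1.35 (limma adjusted p = 0.00113). Ranked by mean among all tested genes, Nlrp14 went from place 59 in WT to place 319 in KO.

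Nlrp2 encodes a maternal protein that associates with the subcortical maternal complex. Its transcript was at 365, 255 and 207 FPKM in WT and at 75.3, 60.4 and 61.3 FPKM in KO. The WT libraries were widely spread (SD 80.9 around a mean of 275 FPKM), whereas the KO libraries were close together (65.7 ± 8.37 FPKM). The log2 fold change was −2.02 (SE 0.199, limma adjusted p = 0.000185), the largest fall of the 9, and −1.43 with the factor removed (limma adjusted p = 0.00174).

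Nlrp4f, whose protein has been found with the subcortical maternal complex and contributes to fertility of female mice, was second in level. It was at 841, 699 and 735 FPKM in WT and at 295, 320 and 260.2 FPKM in KO, with no overlap. The mean of 759 ± 73.9 FPKM fell to 291 ± 29.8 FPKM, a log2 fold change of −1.38 (SE 0.110, limma adjusted p = 0.000162; −0.79 with the factor removed, adjusted p = 0.00175).

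**Figure D3:**
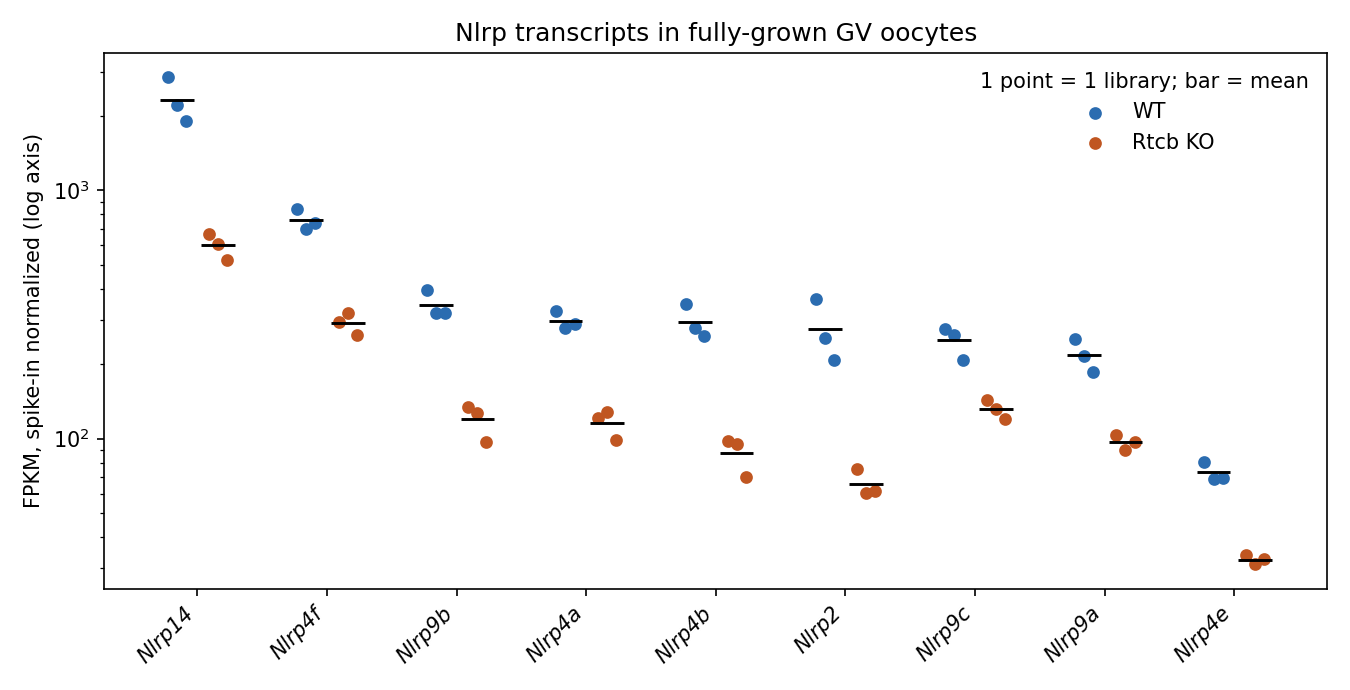
FPKM (log axis) of the 9 Nlrp genes in each of 3 WT and 3 Rtcb KO libraries (points) with the group mean (bar), ordered by WT level. In every gene the 3 KO points lie below the 3 WT points, from Nlrp14 (means 2318 and 600.1 FPKM) to Nlrp4e (73.0 and 32.5 FPKM).

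The remaining Nlrp4 genes are close duplicates that arose within rodents. Nlrp4a was at 328, 279 and 289 FPKM in WT and at 121, 128 and 99.0 FPKM in KO (log2 fold change −1.36, SE 0.119, limma adjusted p = 0.000162). Nlrp4b was at 347, 280 and 258 FPKM in WT and at 97.3, 94.8 and 70.2 FPKM in KO (log2 fold change −1.75, SE 0.158, limma adjusted p = 0.000166). These 2 genes overlapped in WT, with means of 299 ± 25.7 and 295 ± 46.4 FPKM. Their KO ranges were apart by a narrow gap, 99.0 against 97.3 FPKM, with Nlrp4a the higher. Nlrp4e had the lowest level, 80.5, 69.0 and 69.6 FPKM in WT and 33.9, 31.1 and 32.6 FPKM in KO. Its fold change was −1.14 on the log2 scale (SE 0.102, limma adjusted p = 0.000164). This value is subject to the sharing of 50-base windows with 8 other genes, among them Nlrp4a, Nlrp4c and Nlrp4g. Without the factor the log2 fold changes were −0.78 for Nlrp4a, −1.16 for Nlrp4b and −0.56 for Nlrp4e, with limma adjusted p of 0.00232, 0.00164 and 0.00409.

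The Nlrp9 genes encode close relatives, of which NLRP9B is known as a sensor of viral RNA in the intestinal epithelium. Nlrp9b was at 395, 322 and 321 FPKM in WT and at 135, 127 and 96.5 FPKM in KO (log2 fold change −1.54, SE 0.146, limma adjusted p = 0.000174). Nlrp9a was at 252, 215 and 185 FPKM in WT and at 103, 89.9 and 96.8 FPKM in KO (log2 fold change −1.15, SE 0.126, limma adjusted p = 0.000237). Without the factor these were −0.95 and −0.57 (limma adjusted p = 0.00233 and 0.00875).

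Nlrp9c had the smallest fall of the 9. It was at 277, 261 and 207 FPKM in WT and at 142, 131 and 120 FPKM in KO, with no overlap on this scale (log2 fold change −0.91, SE 0.128, limma adjusted p = 0.000582). With the factor removed the lowest WT value, 103, lay below the highest KO value, 107, and the call was lost (−0.33, limma adjusted p = 0.0689). WT replicate 3 held the lowest WT value, and without it the factor-free value was −0.45 (limma adjusted p = 0.0155). With each other library left out in turn, the factor-free value stayed uncalled (limma adjusted p from 0.0819 to 0.203). After scaling to equal totals Nlrp9c was called at −0.48 (limma adjusted p = 0.0281).

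Replicates of a genotype varied in common. WT replicate 1 had the highest value of its group in all 9 genes, both as deposited and after scaling to equal totals. KO replicate 1 was the highest of its group in 7 genes as deposited and in 8 after that scaling. The share of all tested genes that were highest in these libraries was not computed. Outside the 9, Nlrp5 and Padi6 were also highest in WT replicate 1 as deposited, whereas Ooep and Zbed3 were highest in WT replicate 3. Summed over the 9 genes, the libraries held 5739, 4580 and 4174 FPKM in WT and 1671, 1589 and 1362 FPKM in KO. The sum fell from 4831 ± 812 to 1540 ± 160 FPKM, a KO to WT ratio of 0.319, or 0.478 with the factor removed. Without Nlrp14 the ratio was 0.374, and without WT replicate 1 it was 0.352. After scaling every library to an equal total the ratio was 0.429.

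The order of levels differed between the genotypes only in the middle ranks. In WT it ran Nlrp14, Nlrp4f, Nlrp9b, Nlrp4a, Nlrp4b, Nlrp2, Nlrp9c, Nlrp9a and Nlrp4e. The ranges of neighbours did not overlap between Nlrp14 and Nlrp4f, between Nlrp4f and Nlrp9b, and between Nlrp9a and Nlrp4e, and overlapped for the other pairs. In KO it ran Nlrp14, Nlrp4f, Nlrp9c, Nlrp9b, Nlrp4a, Nlrp9a, Nlrp4b, Nlrp2 and Nlrp4e. There the ranges were apart between Nlrp14 and Nlrp4f, Nlrp4f and Nlrp9c, and Nlrp2 and Nlrp4e. Nlrp9c was thus the seventh in WT and the third in KO, and Nlrp2 went from the sixth to the eighth place.

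Ratios within a library do not depend on the scaling of that library, so they show how unequal the fall was. Nlrp14 made up 49.7%, 48.0% and 45.6% of the summed FPKM of the 9 genes in WT and 40.0%, 38.2% and 38.6% in KO. Its share fell from 47.8% ± 2.09 to 38.9% ± 0.940 with no overlap. The share of Nlrp9c went from 5.17% ± 0.471 to 8.53% ± 0.291, that of Nlrp9a from 4.51% ± 0.169 to 6.32% ± 0.734, and that of Nlrp4e from 1.52% ± 0.133 to 2.13% ± 0.232. The share of Nlrp2 went from 5.62% ± 0.702 to 4.27% ± 0.404. Among the 9 shares, only those of Nlrp9b overlapped between the genotypes (7.20% ± 0.432 and 7.71% ± 0.541). For Nlrp4f the gap was narrow, with 17.62% as the highest WT share and 17.63% as the lowest KO share. The shares of a library are parts of the same sum, so a lower share of Nlrp14 by itself raises the others. How often shares stand apart in other sets of genes was not computed.

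**Figure D4:**
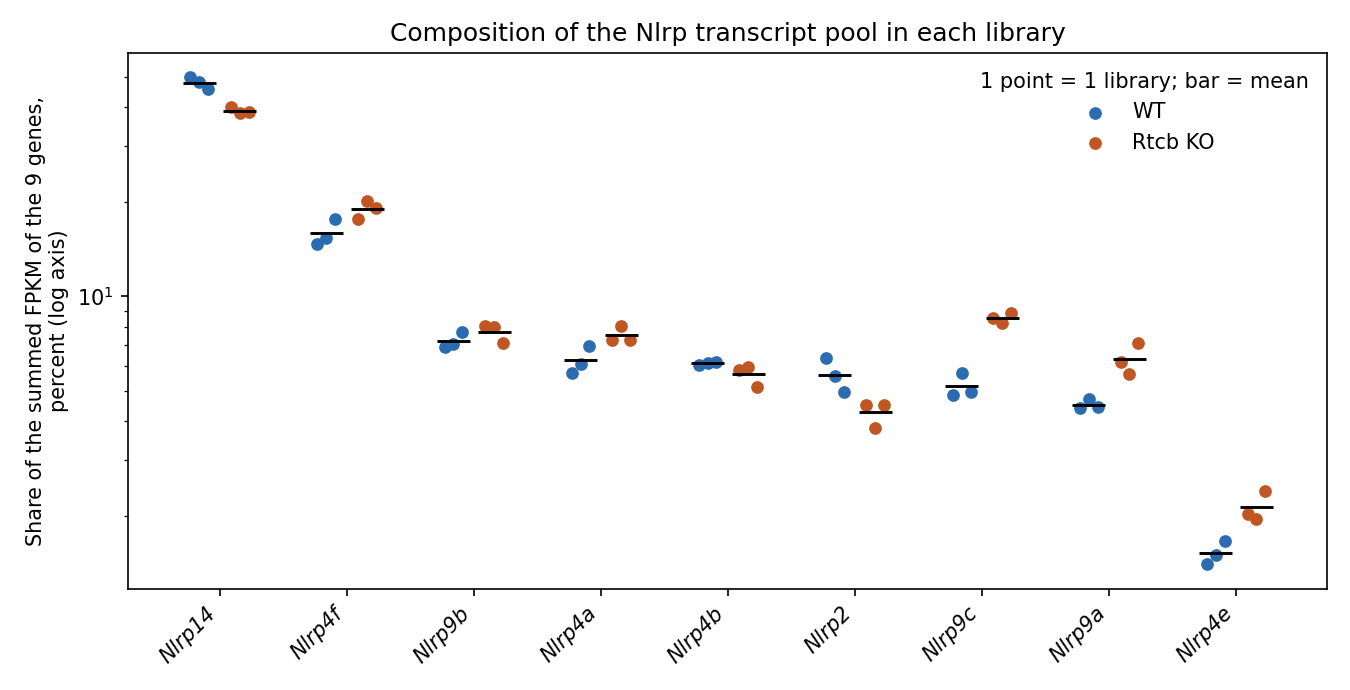
Share of each gene in the summed FPKM of the 9 Nlrp genes, in percent (log axis), for 3 WT and 3 Rtcb KO libraries (points) with the group mean (bar). The 3 KO points of Nlrp14 lie below the WT points (means 38.9% and 47.8%), and those of Nlrp9c lie above them (8.53% and 5.17%).

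Each gene was then compared with the geometric mean of the other 8 in the same library. On the log2 scale this ratio was lower in KO by −0.62 for Nlrp2, −0.53 for Nlrp14 and −0.32 for Nlrp4b. It was higher by 0.62 for Nlrp9c, 0.37 for Nlrp4e and 0.35 for Nlrp9a. In these 6 genes the WT and KO libraries did not overlap, and the two-sided exact permutation p was 0.1 each, the smallest that 3 against 3 libraries allow (adjusted over the 9 ratios, 0.15). None could therefore pass 0.05. The 9 ratios are tied to each other, since each gene is set against the other 8. How often ratios of this kind stand apart among other genes was not computed. Nlrp4a, Nlrp4f and Nlrp9b overlapped (0.11, 0.097 and −0.080; exact p = 0.4, 0.4 and 0.6).

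The ratios of Nlrp9b and of Nlrp9a to Nlrp9c also stood apart between the genotypes. Not every pair of close relatives was compared: Nlrp4a and Nlrp4f, identical at 83.4% of aligned coding bases, were not among the pairs computed. The ratio of Nlrp9b to Nlrp9c was 1.42, 1.23 and 1.55 in WT and 0.945, 0.969 and 0.803 in KO, and that of Nlrp9a to Nlrp9c was 0.909, 0.825 and 0.893 in WT and 0.727, 0.687 and 0.806 in KO. In both the groups were apart (exact permutation p = 0.1, adjusted 0.16 over 8 gene pairs that were chosen after values were seen). The ratio of Nlrp2 to Nlrp14, genes of distant sequence, overlapped between the genotypes at 0.117 ± 0.00966 and 0.110 ± 0.00899 (exact permutation p = 0.5). The ratio of Nlrp14 to Nlrp5 overlapped too, at 4.44 ± 0.326 and 4.75 ± 1.35 (exact permutation p = 1).

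The DNA before the start sites is shown for Nlrp9a and Nlrp9c. They lie on either side of Nlrp4a and have the closest start regions among the 8 genes matched. Their log2 fold changes were −1.15 and −0.91, and their ratio had an exact permutation p of 0.1 (adjusted 0.16). Start windows of 250 bases before to 50 after each start came from the RefSeq table for GRCm38.p6, which matched 8 of the 9 genes. Capitals mark CAGGTG, the E-box form bound by the oocyte factor FIGLA, and CCAAT, the core of the CCAAT box.
Nlrp9a, chr7:26534873-26535022 (+): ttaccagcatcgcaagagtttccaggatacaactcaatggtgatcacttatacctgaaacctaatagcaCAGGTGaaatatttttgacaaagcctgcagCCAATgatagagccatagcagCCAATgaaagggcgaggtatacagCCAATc
Nlrp9c, chr7:26403745-26403894 (−): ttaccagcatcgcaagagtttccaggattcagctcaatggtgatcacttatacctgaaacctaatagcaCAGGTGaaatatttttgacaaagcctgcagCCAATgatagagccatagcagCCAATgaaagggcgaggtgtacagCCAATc
These 150 bases differ at 3 positions, A29T, A32G and A139G, counted from the first printed base with Nlrp9a first. The stretch ends at base −1 of Nlrp9a and at base −45 of Nlrp9c, relative to the annotated starts. The windows as a whole aligned over 243 bases at 92.6% identity.

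The start regions of Nlrp4a, Nlrp4b and Nlrp4c are shown because Nlrp4a and Nlrp4b fell, whereas Nlrp4c, whose values follow further on, was not called. Capitals mark a run of 12 bases common to the 3 and CAGCTG, another form of E-box.
Nlrp4a, chr7:26435494-26435613 (+): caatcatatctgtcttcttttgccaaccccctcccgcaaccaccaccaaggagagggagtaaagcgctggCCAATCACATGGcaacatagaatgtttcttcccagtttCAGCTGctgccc
Nlrp4b, chr7:10687673-10687792 (+): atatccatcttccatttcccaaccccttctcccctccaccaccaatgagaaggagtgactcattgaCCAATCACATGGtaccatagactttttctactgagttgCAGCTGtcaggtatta
Nlrp4c, chr7:6045041-6045160 (+): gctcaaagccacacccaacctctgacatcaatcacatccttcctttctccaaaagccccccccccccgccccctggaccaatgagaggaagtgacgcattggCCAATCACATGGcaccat
The run CCAATCACATGG was picked as the longest common to windows of these 3 genes, so its presence there was set by the choice. Another annotated start window of Nlrp4a lacked it, as did those of Nlrp4e and Nlrp4f, which also fell. The run was present in 7 of 32851 start windows of the table, of 6 genes. Beside the 3 Nlrp4 genes these were Dcxr, Oscp1 and Tmem52b. The windows of the printed stretches of Nlrp4a and Nlrp4b aligned at 74.7% identity over 296 bases, and that of Nlrp4c aligned at 73.8% with Nlrp4a. The other Nlrp4a window aligned over only 19 bases with that of Nlrp4b and 26 with that of Nlrp4c.

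Motifs were searched on both strands of each window. CAGGTG occurred once in each Nlrp9 gene and in none of the windows of Nlrp2, Nlrp4a, Nlrp4b, Nlrp4e and Nlrp4f, and 20.2% of all windows hold it. CAGCTG, added after the sequences were seen, occurred in Nlrp4a, Nlrp4b, Nlrp4e and Nlrp4f (16.3% of all windows). It was present in the window of Nlrp4c too, 20 bases after the start and so outside the printed stretch, and in a window of Nlrp5. Both are forms of the general E-box CANNTG, found in all matched members except Nlrp2 and in 72.3% of all windows. TAATTG, a NOBOX-type motif, was present in Nlrp9a and Nlrp9b (8.0% of windows), and TATAAA in Nlrp9b (13.6%). CCAAT, also added later, is in 37.4% of windows and is part of the shared run. These are matches of letters, and binding was not measured.

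Transcription factors of the oocyte were read as a list of 8, of which 7 were tested. As deposited, 2 were lower and 2 higher (all genes: 54.0% and 9.29%), with a median log2 fold change of 0.17 (all genes −0.47). Without the factor, 1 was lower and 4 were higher (all genes: 18.0% and 25.7%). Figla, which activates zona pellucida and other oocyte genes, rose from 127 ± 13.5 to 171 ± 5.42 FPKM (log2 fold change 0.43, limma adjusted p = 0.00626; 1.01 without the factor). Tbpl2, the oocyte's TATA-binding protein, rose from 17.0 ± 2.22 to 30.9 ± 4.67 FPKM (0.83, limma adjusted p = 0.00180; 1.35 without the factor). Sohlh2 fell from 7.24 ± 1.42 to 3.0 ± 0.227 FPKM (−1.03, limma adjusted p = 0.00106; −0.50 without the factor, adjusted p = 0.0282). Lhx8 was lower as deposited, 319 ± 31.0 and 216 ± 30.4 FPKM (−0.56, limma adjusted p = 0.00553), but stood at 0.019 with the factor removed (limma adjusted p = 0.917).

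Most other NLR genes were low or undetected. Of 23 listed, 22 were in the table, 7 were tested and 15 had a mean under 1 FPKM, among them Nlrp3 and Nlrp1b, the latter at 0 in every library. As deposited, 3 of the 7 were lower and 0 higher (all genes: 54.0% and 9.29%), with a median log2 fold change of 0.11 (all genes −0.47). With the factor removed 2 were lower and 3 higher (all genes: 18.0% and 25.7%). The 3 were Nlrp1a (log2 fold change 0.71, limma adjusted p = 0.00599), Nod2 (0.73, limma adjusted p = 0.0123) and Nlrp4c. As deposited, Nlrp1a and Nod2 were not called (0.32 and 0.29, limma adjusted p = 0.110 and 0.219). Nlrp5 was at 668, 519 and 395 FPKM in WT and at 169, 96.1 and 132 FPKM in KO (log2 fold change −1.99, limma adjusted p = 0.000317; −1.40 without the factor, adjusted p = 0.00333). Nlrc4, the partner of NAIP proteins in an inflammasome that senses bacterial proteins, fell from 17.8 ± 0.409 to 7.01 ± 0.360 FPKM (−1.23, limma adjusted p = 0.000174; −0.66 without the factor, adjusted p = 0.00333). Naip1 fell from 21.5 ± 4.87 to 10.3 ± 1.16 FPKM (−0.97, limma adjusted p = 0.00191), a call lost with the factor removed (−0.41, limma adjusted p = 0.0854) and after median-ratio rescaling (limma adjusted p = 0.0547). Naip1 has close paralogs among which reads can be split.

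Nlrp4c, named after its values were seen, was at 16.7, 10.5 and 7.60 FPKM in WT and at 22.6, 12.7 and 17.0 FPKM in KO. The ranges overlapped, and it was not called as deposited (log2 fold change 0.58, limma adjusted p = 0.114). It was called higher with the factor removed (1.07, limma adjusted p = 0.0164) and after scaling to equal totals (0.98, limma adjusted p = 0.0357). As deposited, it was also called higher without WT replicate 1 (0.85, limma adjusted p = 0.0287). With any other library left out it was not called (0.33 to 0.77, limma adjusted p from 0.0643 to 0.330). Its ratio to Nlrp4e, its closest relative, was 0.207, 0.153 and 0.109 in WT and 0.668, 0.406 and 0.522 in KO, a difference of 1.79 on the log2 scale with the groups apart, subject to the sequence these genes share. The exact permutation p was 0.1 (adjusted 0.16 over the 8 pairs).

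**Figure D5:**
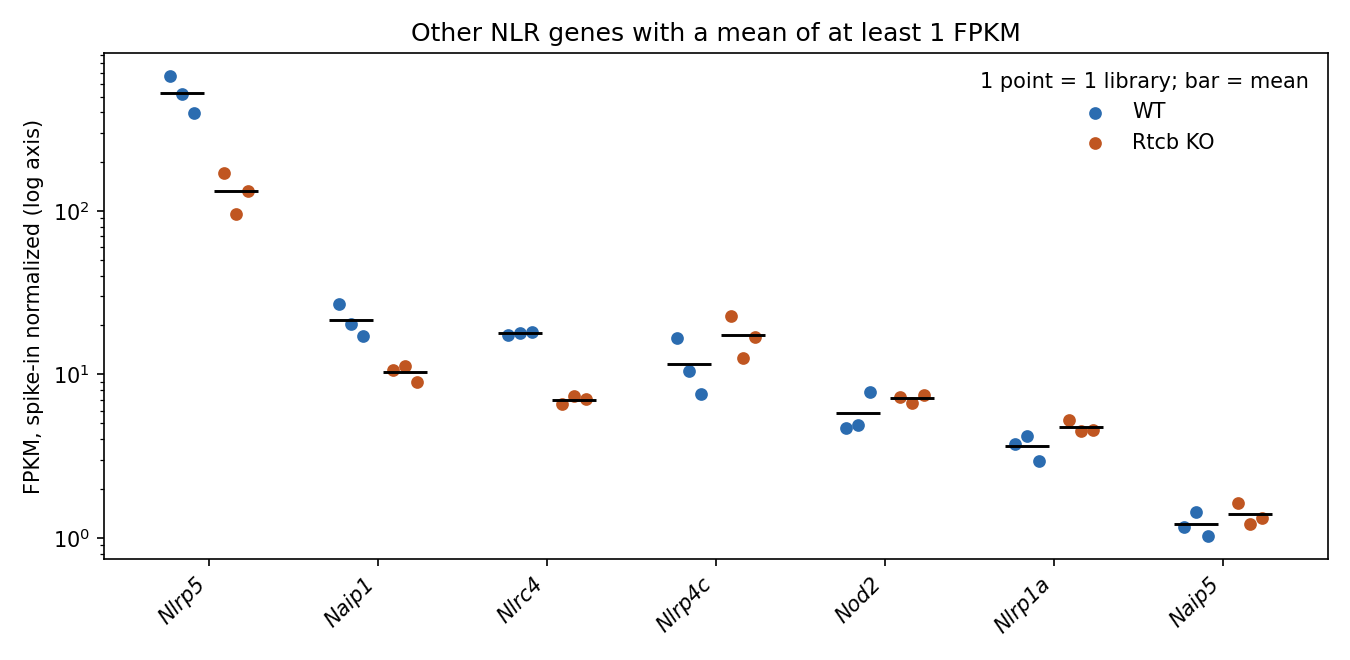
FPKM (log axis) of the 7 tested NLR genes outside the 9, in 3 WT and 3 Rtcb KO libraries (points) with the group mean (bar). The KO points of Nlrp5, Naip1 and Nlrc4 lie below the WT points, and those of Nlrp1a lie above them (4.51 to 5.24 against 2.93 to 4.21 FPKM). Those of Nlrp4c lie at 12.7 to 22.6 FPKM against 7.60 to 16.7 FPKM in WT.

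Partners and effectors of inflammasomes were low or moderate. Of 13 listed, 6 were tested, with 4 lower and 0 higher as deposited, near the background of 54.0% lower among all genes, and a median of −0.72 (all genes −0.47). With the factor removed 2 of the 6 were lower and 0 higher (all genes: 18.0% and 25.7%). Pycard, the adaptor that joins NLRP sensors to caspase-1, and Il1b and Gsdmd had means under 1 FPKM. Casp8 fell from 35.0 ± 4.53 to 14.3 ± 3.62 FPKM (log2 fold change −1.25, limma adjusted p = 0.000690; −0.67 without the factor, adjusted p = 0.0188), and Ripk2, a kinase of NOD signalling, fell from 35.1 ± 4.26 to 16.5 ± 2.47 FPKM (−1.05, limma adjusted p = 0.000541; −0.48 without the factor, adjusted p = 0.0284). Nek7, which binds NLRP3, fell from 17.7 ± 0.560 to 9.99 ± 1.15 FPKM (−0.77, limma adjusted p = 0.00120), and this call was lost with the factor removed (−0.22, limma adjusted p = 0.181).

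Genes of the subcortical maternal complex and the cytoplasmic lattices, the setting of several NLRP proteins in the egg, were all tested. Of these 11, 9 were lower and 0 higher as deposited (all genes: 54.0% and 9.29%), with a median of −1.10 (all genes −0.47). With the factor removed 6 were lower and 2 higher (all genes: 18.0% and 25.7%). Padi6, needed for the lattices, fell from 3392 ± 689 to 746 ± 152 FPKM (log2 fold change −2.18, limma adjusted p = 0.000162). Uhrf1, a DNA methylation factor whose protein is also stored in the egg cytoplasm, fell from 455 ± 71.2 to 161 ± 6.62 FPKM (−1.48, limma adjusted p = 0.000162). Kpna7, an importin of the egg, fell from 537 ± 60.5 to 250.1 ± 15.7 FPKM (−1.10, limma adjusted p = 0.000174). With the factor removed the log2 fold changes of Padi6, Uhrf1 and Kpna7 were −1.60, −0.90 and −0.51.

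The genes with the pattern most like the 9 were sought among 2055 others with a mean of at least 100 FPKM. The measure was the root mean square distance over the 6 libraries from the median centred profile of the 9 genes, on the log2(FPKM + 1) scale. Gmds was nearest (0.0713), followed by Ncapg (0.0749), Nsf (0.0832), Farsb (0.0846) and Eif4enif1 (0.0868). The distances of the 9 genes themselves ran from 0.0539 for Nlrp4a to 0.361 for Nlrp2, and Nlrp5 ranked 678 with a distance of 0.412. Gmds, an enzyme of GDP-fucose synthesis, was at 213, 206 and 203 FPKM in WT and at 81.5, 83.1 and 71.4 FPKM in KO. Eif4enif1, whose protein represses translation in oocytes, was at 377, 294 and 293 FPKM in WT and at 127, 111 and 111 FPKM in KO. These likenesses are descriptions over 6 libraries that share the contrast.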

How the data were processed

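PolyA RNA of 3 WT and 3 Rtcb KO libraries of 10 oocytes was converted to cDNA with Smart-seq2, per the labels' protocols. TopHat2 2.1.1, Cufflinks 2.2.1 and build mm9 are named in the submitters' processing notes; the annotation was not given in the sources used here. Per the labels, the authors normalized the deposited FPKM to ERCC spike-ins. For values of at least 1 FPKM, 252 fractions were tried. Division by 2 (WT) and 4/3 (KO) turned 100% of these values back into numbers of Cufflinks' precision, against at most 76.8% for the next. The factors hold up to powers of 10. Spike-in error between replicates is thus not part of the spread. Read depth is unknown.

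limma 3.58.1 compared log2(FPKM + 1) of genes averaging at least 1 FPKM (R 4.3.3; eBayes with intensity trend, two-sided, Benjamini-Hochberg, 0.05), tested on simulated data. Ratios within libraries had exact permutation tests. The members and lists were chosen with earlier results of these data known. Named were the 9 genes, Rtcb, Nlrp5, up to 3 called genes of smallest p per list and direction, and the 5 genes of most similar pattern. Nlrp4c, Nlrp1a, Nod2, Ooep, Zbed3, the granulosa and blood markers and the genes named as under 1 FPKM were picked with their values in view. Alternatives were pseudocounts of 0.1 and 5, other filters, 3 rescalings, no intensity trend, a replicate block and leaving out each library; leaving out libraries with the factors removed was added after seeing the data. Promoters came from RefSeq and transcripts from GENCODE vM21, matched by symbol (coding sequences stand in for the planned proteins), and Python 3.11.15 with Bio 1.88 aligned them. No position in mm9 is given.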

Additional observations from a re-analysis of the deposited data

How the results depend on the processing

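The 9 Nlrp genes were called lower under every alternative that tested them, except Nlrp9c with the genotype factors removed; Nlrp4e was not tested at a mean of at least 100 FPKM. The number of all genes called lower and higher moved to 3107 and 2283 after scaling to equal totals, to 2606 and 2746 after median-ratio rescaling, and to 2161 and 3097 with the factors removed. It was 1371 and 79 at a mean of at least 100 FPKM, where fewer genes were tested, and 490 were higher at a mean of at least 10 FPKM. The median log2 fold change of the 9 was −0.95, −0.86 and −0.79 under the 3 rescalings in that order, and −1.45 to −1.30 when each library was left out. The ratio of the sums was 0.429, 0.456 and 0.478, 0.374 without Nlrp14, and 0.299 to 0.352 when each library was left out. Lhx8 changed sign with the factors removed (0.019).

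Deviations of same-numbered libraries were weakly correlated (0.141, −0.0988 and 0.0379), within the range of differently numbered pairs (−0.243 to 0.172). With 3 libraries per genotype these values cannot decide whether the numbers pair the libraries. With the replicate block all 9 genes were called lower, with 6432 lower and 1108 higher genes in all, and Nlrp4c was called higher (limma adjusted p = 0.0377). With the factors removed and 1 library left out at a time, 8 of the 9 genes were called, or 9 without WT replicate 3. The adjusted p of Nlrp9c then reached 0.203. Unknown depth, 3 libraries per genotype and the single factor per genotype limit the precision, and the smallest exact p is 0.1. An error in that factor would move the log2 fold changes of all genes in the same direction. The move would be smaller at low levels, because 1 is added to each FPKM. Removing the factor took Nlrp14 from −1.93 to −1.35, and Nlrp4c, a gene of lower level, from 0.58 to 1.07.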
